A study of Caenorhabditis elegans with 8 samples.

Results

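Arrays of young adult Caenorhabditis elegans of both genotypes in this microarray study differed along a shared axis that is not the genotype. The results below describe the genes along it. The 4 adult arrays, of 8 in all, were set against each other as crossed pairs. Pair A holds wild-type replicate 1 and knockout replicate 2, and pair B holds wild-type replicate 2 and knockout replicate 1, so that each pair has 1 array of each genotype. The split was chosen from the measured values, because the arrays of each pair deviate together from the means of their genotypes. The differences between the pairs are therefore given as a description, with no test. The rule did not use the difference between wild-type adults and embryos or the replicates of the embryos. The genotype difference in adults is balanced over the pairs, but its error comes from the same arrays. Part of the error of the stage difference does too.

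The wild type was the N2 strain, and the knockout lacked seip-1, which encodes seipin, a membrane protein that helps lipid droplets form at the endoplasmic reticulum. All adults hatched from embryos isolated with hypochlorite, stayed without food overnight as L1 larvae, and were harvested as pooled animals 52 h after feeding began. The embryos came from gravid adults of that age, with 2 arrays per genotype and stage and 0.2 µg of total RNA labelled per sample. The labels do not say whether replicates were separate cultures, so the p-values below measure only the spread between these samples.

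The nematode cuticle is an extracellular matrix made mostly of collagens, which the epidermis secretes anew at each molt. Collagens, molting proteases, cuticlins and hedgehog-related proteins are transcribed in pulses through the larval molts, and the pharynx sheds and rebuilds a cuticle of its own at the same times. The hermaphrodite germline makes sperm first, in the last larval stage, and then switches to oocytes, which the adult provisions with yolk and maternal RNA. A gravid adult also carries embryos in its uterus, so a whole-worm sample holds some embryonic RNA.

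The labelled stage was checked on marker genes. The yolk protein gene vit-2 was not well above background on either wild-type embryo array and read 6.44, 6.47, 6.48 and 6.71 on the adult arrays, as log2 signal relative to the 75th percentile of the array, the scale of every level below. The adult-specific collagen col-19 read 6.43, 6.47, 6.55 and 6.67 and was likewise not well above background in wild-type embryos. Every adult array thus carried both adult markers. Both read slightly higher in pair B, with pair A minus pair B at -0.14 for vit-2 and -0.16 for col-19. The targeted gene went with the labels too: seip-1 had intensities of 3120 and 2966 on the wild-type adult arrays and 5.74 and 6.97 on the knockout ones, which were not above background. It was at least 114-fold lower in the knockout (limma, adjusted p = 2.28e-05).

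Several properties of the arrays moved with the pairs. The median signal was 275 and 276 in pair A against 224 and 218 in pair B, and the 75th percentile was 2673 and 2745 against 2302 and 2291. Pair A lay in positions 3 and 1 of the slide and pair B in positions 4 and 2. All 4 were on 1 slide with 1 scan number, and between 68.3% and 70.8% of probes were well above background. Scaling removes the difference in the percentile, but the part of brightness in the pattern was not tested, and slide position cannot be told apart from the pairs.

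Of 15113 genes measured, a set that requires a signal well above background on each array of either pair, 4243 (28.1%) had both pair A arrays above both pair B arrays, and 5757 (38.1%) had both below. A gene is called separating where, in addition, the mean difference was at least 1 on the log2 scale, or 2-fold. By this rule 519 genes (3.43%) were higher in pair A and 93 (0.615%) were higher in pair B. On the values as measured, 58 and 11 of them differed by at least 4-fold. These counts include genes not above background in 1 pair, whose folds are known only as bounds. For example, fbxc-39 counts at 4.24-fold higher in pair B, but its bound is 1.81-fold. Over all genes the difference between the pairs had a median of -0.04 and a standard deviation of 0.46. The standard deviation was 0.31 for the difference between the genotypes on the same 4 arrays. The pairs were chosen from these values for arrays that deviate together, which favours a larger spread. The 2 standard deviations are therefore not on equal terms. Both counts of separating genes depend on how dim signals are treated. With normexp background correction, which pulls dim signals together, they were 209 and 18, and among genes above background on all 4 arrays they were 418 and 47.

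**Figure D1:**
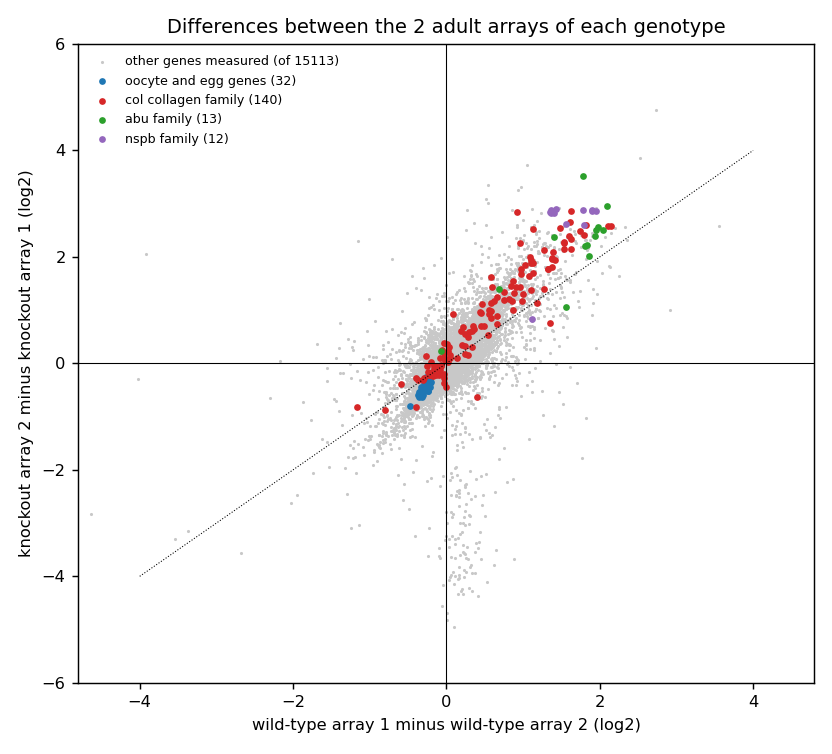
Each point is a gene, placed by wild-type array 1 minus wild-type array 2 (x axis, log2) and knockout array 2 minus knockout array 1 (y axis, log2), with the dotted line marking equal differences. The abu, nspb and many col genes lie at the upper right, the oocyte and egg genes lie together just below and left of the origin, and a column of grey points near 0 on the x axis falls to below -4 on the y axis.

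By its definition, a separating gene differed in the same direction within both genotypes. Over all 15113 measured genes the difference between the wild-type arrays correlated with that between the knockout arrays at 0.69. This describes 4 arrays on 1 slide, which are not independent replicates, and the choice of the pairs fixed the positive sign. The knockout arrays lay farther apart, with a standard deviation of 0.63 against 0.37 in the wild type. Of the genes higher in pair A, 451 of 519 differed more within the knockout than within the wild type, with median differences of 1.61 and 1.07. Knockout replicate 1 was the lowest of the 4 arrays in 454 of these genes, and the order wild type 1, knockout 2, wild type 2, knockout 1 was the most frequent, in 297 (57.2%). Leaving out either wild-type array gives the knockout difference alone, with 816 genes at least 2-fold higher in pair A and 306 in pair B. Leaving out either knockout array gives the wild-type difference alone, with 352 and 68 such genes, and 57.6% of the 519 genes were among the 352.

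Among named genes above background on all 4 arrays, the highest differences belonged to abu and nspb genes, to cuticle collagens and to a hedgehog-related gene. The abu genes encode proteins rich in glutamine and asparagine that have been linked to the pharyngeal cuticle. In the values that follow, the wild-type array stands first in each pair, and ± gives the distance of each within-genotype difference from their mean. The gene abu-7 read -0.85 and -1.44 in pair A and -2.95 and -4.39 in pair B, a difference of 2.53 ± 0.43, or 5.76-fold. Its neighbour abu-6 read 2.91 and 2.14 against 0.94 and -0.41 (2.27 ± 0.29). Both fell in the same order over the 4 arrays, with knockout replicate 1 far below the rest. Of 13 measured abu genes 12 were separating, all higher in pair A, with a family median of 2.03. The gene abu-11 was not above background in pair B and was at least 3.15-fold higher in pair A. The wider list of 59 abu and pqn genes split, with 23 separating and a median of only 0.17. Its member pqn-54 read -1.92 and -2.62 against -3.82 and -5.07 (2.18 ± 0.28).

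The nspb genes, which encode short nematode-specific peptides, formed the other near-complete family, with 11 of 12 measured members separating and a median of 2.15. Levels of nspb-10 were 1.34 and 0.27 in pair A and -0.61 and -2.61 in pair B, a difference of 2.41 ± 0.46. Nearly the same difference was seen in nspb-7 (2.39 ± 0.49) and nspb-11 (2.38 ± 0.48). For nspb-2 it was 2.17 ± 0.74, from 1.96 and 0.95 against 0.53 and -1.96. Members of the abu, nspb, col, msp and histone families resemble each other in sequence, so probes may share signal between copies and the members are not independent of each other.

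Cuticle collagens were the most numerous group. Of 140 measured genes of the col family, 50 were separating, all higher in pair A, and the family median was 0.49 against -0.04 over all genes. Levels of col-137 were 2.56 and 1.76 in pair A and 0.41 and -0.83 in pair B, a difference of 2.36 ± 0.22, or 5.15-fold. For col-127 they were 3.84 and 3.37 against 2.21 and 0.51 (2.25 ± 0.62), and for col-161 2.40 and 1.44 against 0.58 and -1.17 (2.21 ± 0.39). The 2 pairs did not overlap in any of these, and knockout replicate 1 was the lowest array in 49 of the 50 separating col genes. The very bright col-146 differed by 2.13 ± 0.52, although its 6 measured probes ranged from 1.25 to 2.16. The dim col-50 read -5.97 and -5.67 against -8.07 and -8.25 and was not above background in pair B, so that its difference was at least 1.52-fold.

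The col family did not move as a whole. Of its 140 genes 85 (60.7%, against 28.1% of all genes) had both pair A arrays above both pair B arrays. The reverse held for 31 (22.1%, against 38.1% of all genes), and 3 col genes differed by at least 0.5 in that direction. Among the 75 col genes in the brightest of 5 equal classes of genes by mean level the median difference was 0.13, with 24 separating, while it was 1.05 for the 16 in the middle class. The adult collagen genes col-19 and col-7, named here after their values were seen, differed by -0.16 ± 0.04 and 0.44 ± 0.14. In contrast col-62, also named after its values were seen, read 4.55 and 4.04 against 3.42 and 1.51 (1.83 ± 0.70). A second probe of col-7 gave 1.27, so its value depends on the probe. By the probes used, these 3 collagens, all bright in adults, followed the axis to different extents.

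Collagens whose mutants change the shape of the body followed the axis more evenly in both genotypes. Of 14 such genes outside the annular furrow group, 11 (78.6%, against 28.1% of all genes) had both pair A arrays higher. Of the 14 genes 6 were separating, and the median was 0.96. The median was 0.84 in the wild type and 1.03 in the knockout, against 0.34 and 0.63 for the col family. The dumpy gene dpy-13 read 3.99 and 4.10 in pair A and 2.96 and 2.11 in pair B, a difference of 1.52 ± 0.48. For dpy-5 the levels were 4.74 and 4.74 against 3.74 and 2.88 (1.43 ± 0.42). In both genes the pair A arrays of the 2 genotypes were level, and only pair B spread. The squat and roller collagens sqt-1 and rol-6 read 1.07 and 1.52 against 0.03 and -0.04 (1.3 ± 0.26) and 0.23 and 0.63 against -0.76 and -0.97 (1.29 ± 0.30). Next came rol-8 (1.15 ± 0.20) and lon-3 (1.12 ± 0.16), and bli-1, a collagen of the adult cuticle's struts, stood just under the threshold (1.00 ± 0.04). Other members stayed near 0, such as sqt-3, the brightest of the group, with levels from 7.14 to 7.37 and a difference of -0.13. A second probe of sqt-3 gave 1.05, so its value depends on the probe.

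The 6 collagens of the annular furrows, which form the circumferential grooves of the cuticle, gave a median of 0.54. Of these, dpy-8 was separating at 1.08 ± 0.19, with levels of -1.35 and -0.99 against -2.62 and -1.88. Below the threshold lay dpy-7 (0.89 ± 0.04), dpy-2 (0.67 ± 0.01), dpy-9 (0.42 ± 0.02), dpy-3 (0.20 ± 0.05) and dpy-10 (-0.01 ± 0.07). A second probe of dpy-7 gave 1.12, which is above the threshold. Within this group the members thus ranged from no difference to more than 2-fold. The enzymes that process collagens differed little: none of 15 was separating and the median was -0.02, with 0.67 ± 0.03 for mlt-7, a peroxidase that crosslinks the cuticle.

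Hedgehog-related genes, whose secreted products take part in molting and in the apical matrix of the epidermis, had 15 separating members of 43, all higher in pair A, and a median of 0.65. The ground-like gene grl-21 read 2.25 and 1.07 in pair A and 0.10 and -1.39 in pair B, a difference of 2.30 ± 0.16, and its 5 probes ranged from 2.28 to 2.31. The groundhog gene grd-6 followed at 2.12 ± 0.30. Among the 9 measured warthog genes 5 were separating. The epidermal wrt-2 read -3.67 and -2.93 against -5.29 and -4.50, a difference of 1.59 ± 0.02 with nearly the same size in both genotypes, while wrt-7, not above background in pair B, was at least 1.75-fold higher in pair A. Of 19 patched-related genes, which encode membrane proteins related to the hedgehog receptor, ptr-3 (1.14 ± 0.25) and ptr-4 (1.1 ± 0.12) were separating, and the median was 0.33.

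Other matrix genes gave smaller shares. Of 31 measured nas genes, which encode astacin metalloproteases, 10 were separating with pair A higher and 1 with pair B higher. The highest was nas-1, at -3.25 and -3.83 against -5.06 and -6.15 (2.07 ± 0.25), and nas-3, not above background in pair A, was at least 1.79-fold higher in pair B. Among 23 genes of cuticlins and related zona-pellucida proteins 4 were separating, led by cut-2 with 0.49 and 0.53 against -0.56 and -1.29 (1.43 ± 0.39). The list of 29 molting regulators and matrix genes had a median of 0.08, which changed sign with the scaling, and 3 separating members, mlt-8 (1.24 ± 0.34), ptr-4 and nas-6, which was not above background in pair B. The molting protease nas-36 differed by 0.69 ± 0.01 and nas-37 by -0.21 ± 0.16, so even close partners diverged. The nuclear receptor nhr-23, which drives molting genes in larvae, read -0.51 and -0.51 against -0.33 and -0.30.

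The 10 lists of cuticle genes together held 21.6% of the 519 genes higher in pair A, although they held only 2.47% of the genes measured. Of the 93 genes higher in pair B they held 1. All 41 lists together held 27.4% of the 519 genes, so most of the genes along the axis lay outside the lists. Only 269 of the 519 had a gene name. Those known by sequence name alone included C06E8.5, at -0.72 and -2.01 against -2.92 and -4.56 (2.37 ± 0.17), and K10H10.4 (2.33 ± 0.02). The chemoreceptor gene sre-20 was not above background in pair B and was at least 3.95-fold higher in pair A.

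Outside the lists, 2 further families were among the 6 with the highest share of genes higher in pair A, idpp with 8 of 16 and dbd with 6 of 14. The gene dbd-13 read 2.0 and 1.57 against 0.24 and -0.61 (1.97 ± 0.21), and idpp-5 differed by the same amount (1.97 ± 0.40). In the list of 20 epidermis and seam markers only wrt-2 and the antimicrobial peptide gene nlp-30 (1.05 ± 0.38) were separating, with nlp-29 next at 0.92 ± 0.33, and the other members reached down to -0.42. The neuropeptide-like gene nlp-25 read -0.20 and -0.72 against -1.85 and -2.06 (1.5 ± 0.16). Some response genes were noticed only after their values were seen. These were the infection response genes irg-1 (1.90 ± 0.57) and irg-2 (1.98 ± 0.15), the pals genes pals-23 (1.81 ± 0.65) and pals-24 (1.89 ± 0.39), the transporter genes pgp-5 (1.87 ± 0.72), pgp-6 (1.71 ± 0.70) and pgp-7 (1.83 ± 0.73), and the myo-inositol transporter gene hmit-1.1 (2.06 ± 0.46). In all of these but irg-2 the widest gap in the order of the 4 arrays was that below the other 3, to knockout replicate 1. Most members of the pals and pgp families were not separating. Of 15 measured pals genes 2 were separating (family median 0.16), and of 14 pgp genes 3 were (family median 0.29).

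**Figure D2:**
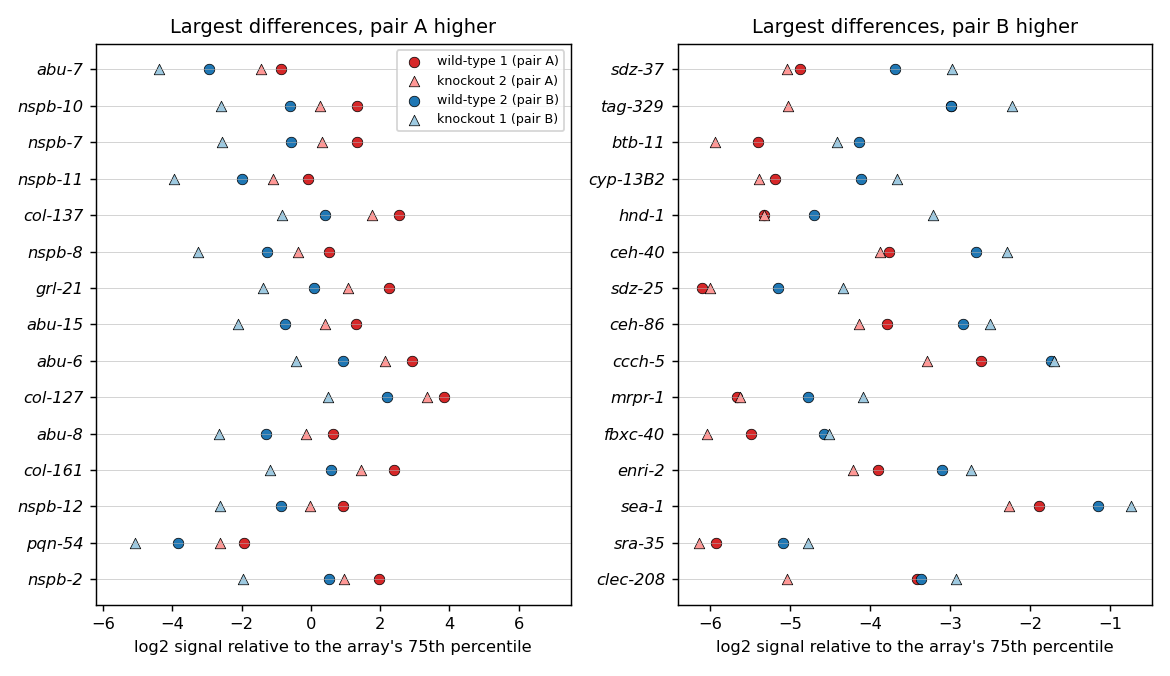
Levels on the 4 adult arrays (x axis, log2 signal relative to the array's 75th percentile) of the 15 named genes with the largest differences in each direction, with circles for wild type, triangles for knockout, red for pair A and blue for pair B. On the left wild-type array 1 is the highest in every gene, and on the right tag-329 and clec-208 show wild-type arrays at the same level with knockout array 2 alone below.

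Oocyte and egg genes shifted the other way, by less but more evenly. All 32 oocyte and egg genes were measured on all 4 arrays, and none reached 2-fold. Of them 30 (93.8%, against 38.1% of all genes) had both pair B arrays above both pair A arrays. The reverse held for 0, against 28.1% of all genes. The median of the list was -0.39, from -0.64 to -0.23, with -0.30 in the wild type and -0.50 in the knockout. The Nanos-related nos-2 read 1.95 and 1.68 in pair A and 2.43 and 2.48 in pair B (-0.64 ± 0.16). The maternal zinc-finger gene pos-1 read 5.23 and 4.98 against 5.59 and 5.62 (-0.50 ± 0.14). Eggshell genes belonged to the same shift, with the chitin synthase gene chs-1 at 3.43 and 3.32 against 3.75 and 3.96 (-0.48 ± 0.16) and gna-2 at -0.47 ± 0.14. So did mex-1 (-0.48 ± 0.12) and the yolk receptor gene rme-2 (-0.42 ± 0.12). The log2 of the summed level of the list was 9.36 and 9.30 in pair A against 9.62 and 9.72 in pair B. In whole worms, fewer cells of a type and less RNA per cell cannot be told apart.

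Genes of the germline proper and of meiosis gave the same picture at a smaller size. Of 41 measured genes 40 (97.6%, against 38.1% of all genes) had both pair B arrays higher, and the median was -0.26. Among them were glh-2, a helicase of the germ granules (-0.39 ± 0.08), zim-1, which pairs meiotic chromosomes (-0.37 ± 0.11), and glp-1, the Notch receptor of germline stem cells (-0.36 ± 0.07). A single member, atz-1, was separating, but it was not above background in pair A and its difference is known only to be at least 1.86-fold. Of 45 core histone genes 34 (75.6%, against 38.1% of all genes) had pair B higher without overlap, with a median of -0.28. The yolk protein genes, transcribed in the adult intestine, were all 5 (100%, against 38.1% of all genes) higher in pair B without overlap. They were led by vit-1 at 6.56 and 6.92 against 7.03 and 7.35 (-0.45 ± 0.02). The other 4 lay between -0.21 and -0.14, near the median of -0.14 in the brightest class of genes.

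Bright genes as a whole leaned the same way. The median difference was 0.11 and 0.09 in the dimmest and the next of the 5 classes of genes by mean level, 0.00 in the middle, and -0.16 and -0.14 in the brighter classes. The cytosolic ribosomal protein genes had a median of -0.13, which changed sign with the scaling. Of 77 such genes 68 (88.3%, against 38.1% of all genes) were higher in pair B without overlap. Mitochondrial ribosomal protein and proteasome genes had medians of -0.14 and -0.19. Without overlap, 77.1% and 90.9% of them were higher in pair B. The median of the oocyte and egg genes kept its sign under the 5 scalings tried, between -0.47 and -0.33, and relative to the median of all genes it lay between -0.35 and -0.29. For the germline and meiosis genes the relative median lay between -0.22 and -0.15. The median levels of both lists lay in the brighter classes, which had lower medians than all genes. These relative medians are thus not relative to genes of like brightness.

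Sperm genes did not follow the oocyte genes. Of 35 sperm genes other than those for major sperm proteins, 29 (82.9%, against 28.1% of all genes) had both pair A arrays higher. The reverse held for 2 (5.71%, against 38.1% of all genes), and the median of the list was 0.41. The fertilization gene spe-9 read -2.54 and -2.11 against -3.13 and -3.05 (0.77 ± 0.17). The sperm membrane gene spe-38 (0.69 ± 0.13) and the Argonaute gene of spermatogenesis alg-4 (0.60 ± 0.19) belonged to the same group, although 1 of 2 probes of alg-4 gave 0.00. The 27 major sperm protein genes, which are among the brightest on the array, had a median of -0.01, with 10 higher in pair A and 13 in pair B. The highest of them were msp-63 (0.31 ± 0.11) and msp-142 (0.30 ± 0.07). Sperm and oocyte genes thus leaned to opposite pairs, while the median of the major sperm protein genes lay near 0 and changed sign with the scaling.

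**Figure D3:**
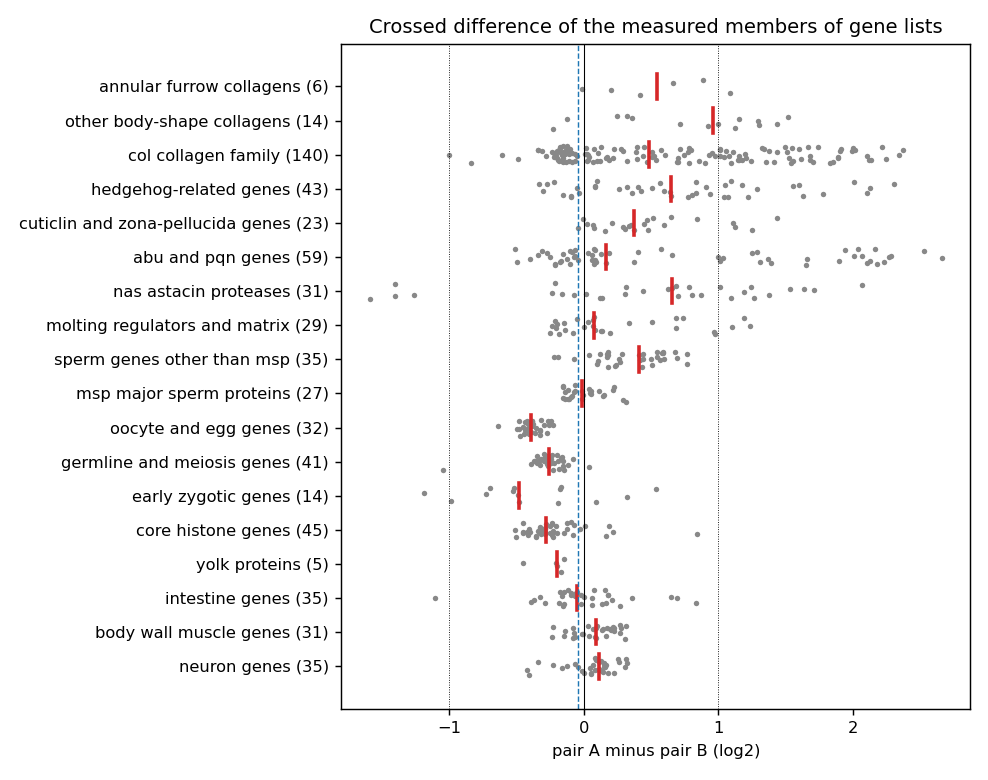
Difference between the pairs (x axis, pair A minus pair B, log2) of every measured member of 18 gene lists, with a red bar at each list's median, the blue dashed line at the median of all genes and dotted lines at 2-fold. The cuticle lists spread to the right, the oocyte and egg genes form a narrow band below 0, and muscle and neuron genes stay close to 0.

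The marker lists of epidermis, muscle, intestine and neurons had medians from -0.05 to 0.17. The 20 measured epidermis and seam markers had a median of 0.01 that changed sign with the scaling. Without overlap, 6 (30%, against 28.1% of all genes) were higher in pair A and 5 (25%, against 38.1%) in pair B. None of 31 body wall muscle genes, 8 pharyngeal muscle genes, 35 intestine genes or 35 neuron genes was separating, and the medians were 0.09, 0.17, -0.05 and 0.11. The median of the intestine genes changed sign with the scaling. The desaturase gene fat-7 differed by -1.1 ± 0.13, but its levels of 1.5 and 2.82 against 2.73 and 3.79 overlapped. The knockout array was the higher in each pair, but this genotype difference was not called (1.19 ± 0.46, SE, limma adjusted p = 0.783). None of the 22 heat shock genes was separating (median -0.08), and neither was any of 10 heterochronic genes, which time larval stages. In that last list lin-41 (-0.45 ± 0.09) and lin-28 (-0.34 ± 0.12), both also active in the germline, went with the oocyte genes.

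Among the 93 genes higher in pair B, sdz-37 had the largest difference of the named genes above background on all 4 arrays. The sdz genes, named for zygotic expression that depends on the factor SKN-1, had 3 separating members of 11. Levels of sdz-37 were -4.88 and -5.04 in pair A and -3.70 and -2.98 in pair B, a difference of -1.62 ± 0.44, or 3.08-fold. For sdz-25 they were -6.10 and -6.0 against -5.15 and -4.34 (-1.3 ± 0.36), while sdz-26, not above background in pair A, was at least 1.86-fold higher in pair B. For sdz-37 and sdz-25 the pair A arrays of both genotypes were level, and knockout replicate 1 was the highest. Further named genes with large differences were the Hand-type transcription factor gene hnd-1 at -5.33 and -5.32 against -4.70 and -3.22 (-1.37 ± 0.74), the homeobox genes ceh-40 (-1.33 ± 0.25) and ceh-86 (-1.29 ± 0.34), and the T-box gene sea-1 (-1.13 ± 0.39). The forkhead neighbours fkh-3 and fkh-4 differed by -1.01 ± 0.34 and -1.03 ± 0.32.

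Other leading genes in this direction were btb-11 (-1.40 ± 0.13), the cytochrome P450 gene cyp-13B2 (-1.40 ± 0.33), the zinc-finger gene ccch-5 (-1.23 ± 0.36), mrpr-1 (-1.22 ± 0.33), the F-box gene fbxc-40 (-1.21 ± 0.31), enri-2 (-1.14 ± 0.33) and the chemoreceptor gene sra-35 (-1.1 ± 0.26). The gene known only as C40A11.2 read -6.11 and -6.49 against -4.15 and -4.01 (-2.22 ± 0.26). The neuropeptide gene flp-23 and the chemoreceptor gene srd-12 were not above background in pair A and were at least 3.91-fold and 3.66-fold higher in pair B. On the fixed list of 37 early zygotic genes only 14 were measured in adults, and 10 of them were above background on all 4 arrays. A gene measured through 1 pair alone tends, by the filter, to read higher in that pair. The median of the 14 was -0.48. Without overlap 7 (50%, against 38.1% of all genes) had pair B higher, against 1 the other way. With so few genes this share lies near that of all genes. The single separating member of the list was sdz-26. The list's vet-2 read -2.97 and -3.32 against -2.29 and -2.04 (-0.98 ± 0.30) and pes-1 differed by -0.69 ± 0.25. In the dimmest class of genes lay 76 of the 93, and none was in the brightest 2 classes, whereas the 519 were found in every class, with 39 in the brightest.

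Not every large difference followed the axis in both genotypes. The scatter plot of within-genotype differences shows a set of genes, noticed there, that were low on knockout replicate 2 alone. On that array 73 genes were at least 4-fold below each of the other 3, and 51 of them were not above background. The same count was 19 for knockout replicate 1 and 0 for either wild-type array. Their median difference was 0.18 between the wild-type arrays and -3.66 between the knockout arrays. Of the 73 genes 18 encode C-type lectins of the clec family, of which 148 were measured, and 4 of 14 measured scl genes were among them. Levels of scl-15 were -4.21 on wild-type replicate 1, -8.19 on knockout replicate 2, -4.30 on wild-type replicate 2 and -3.23 on knockout replicate 1. For clec-124 the levels, in the same order, were -4.90, -8.47, -5.07 and -4.44. Such genes differed within the knockout alone, yet 10 of them count among the 93 separating genes because wild-type replicate 1 lay slightly below wild-type replicate 2. Among the leading genes, tag-329 (-1.40 ± 1.40) and F26D10.13 (-1.87 ± 1.79) belong to them, and clec-208 (-1.08 ± 1.03) has the same shape with a smaller gap.

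The genotypes were compared with an error that holds the spread by which the separating genes were chosen. The median standard error was 0.60 for the genes higher in pair A and 0.19 over all genes. The limma test of knockout against wild-type adults, fitted on all 8 arrays, called 17 of 15012 genes at an adjusted p under 0.05, with 11 higher (0.0733%) and 6 lower (0.04%) in the knockout. It called 0 of the 452 tested genes higher in pair A and of the 77 higher in pair B, a count that their selection largely fixes, and 1 of each had an unadjusted p under 0.05, against 847 genes (5.64%) in all. Their median differences were -0.50 and -0.24 in the sense of knockout minus wild type. For abu-7 the difference was -1.01 ± 1.07 and for col-137 -1.02 ± 0.94 (SE, n = 2 arrays per group, limma adjusted p = 0.9999 for both). For both genes the standard error was about as large as a 2-fold difference. Without knockout adult replicate 1 or 2, where the lone array is assumed to vary like the other groups, the calls were 20 higher and 70 lower or 19 and 31, and without any other array 0 to 3 higher and 2 or 3 lower.

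The rule did not use the stage comparison, but the error of this test holds the spread by which the separating genes were chosen. The median standard error was 0.60 for genes higher in pair A and 0.57 for those higher in pair B. Over all tested genes it was 0.20. The called shares of separating genes and of all genes are therefore not on equal terms. Of 16126 genes tested with limma, 6907 (42.8%) were higher in wild-type adults than in wild-type embryos and 6662 (41.3%) were lower. Of 483 tested genes higher in pair A, 241 (49.9%) were higher and 95 (19.7%) were lower in adults, with a median log2 difference of 1.69. Of 88 tested genes higher in pair B, 11 (12.5%) were higher and 66 (75%) were lower, with a median of -5.79. Without the 10 genes low on knockout replicate 2 alone, the same 66 lower genes stood among 78, and 3 were higher. The shares of the genes higher in pair A differed by brightness. In the dimmest class 58 of 198 (29.3%) were higher and 68 (34.3%) were lower in adults, against 42.1% and 37.8% of all tested genes there. In the brightest class 33 of 39 (84.6%) were higher and 0 were lower, against 42.5% and 37.5% of all tested genes there. For the genes higher in pair B, dim genes as a whole had a lower share. In the dimmest class by adult level 37.8% of all tested genes were lower in adults, against 50 of 71 (70.4%) of the genes higher in pair B. Of the 73 genes low on knockout replicate 2 alone, 54 were higher in adults and 1 was lower. Stage and slide cannot be told apart, since all embryo arrays were on another slide.

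The stage differences were large. The early embryonic gene sdz-25 was 899-fold lower in adults (log2 -9.81 ± 0.57, SE, n = 2 per group, limma adjusted p = 6.86e-06), and hnd-1 was 242-fold lower. Toward adults, dpy-13 was 345-fold higher (log2 8.43 ± 0.66, adjusted p = 2.65e-05) and col-137, not above background in embryos, was at least 275-fold higher. Of the 48 tested separating col genes 36 were higher in adults and 0 were lower, and over the whole family 105 of 136 were higher and 9 were lower. The nspb genes were higher in adults in 11 of 12 cases and the abu genes in 8 of 12. Cuticle genes did not all share this direction. Of the warthog genes 6 of 9 were lower in adults, as were 20 of 29 molting genes and 15 of 23 cuticlin genes. The warthog gene wrt-2 was 26.9-fold lower (log2 -4.75 ± 0.64, limma adjusted p = 4.13e-04). Sperm genes other than msp were higher in adults in 34 of 35 cases, and early zygotic genes were lower in 12 of 14. Of 32 oocyte and egg genes 14 (43.8%) were higher and 11 (34.4%) were lower. Over all tested genes, the shares were 42.8% higher and 41.3% lower.

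**Figure D4:**
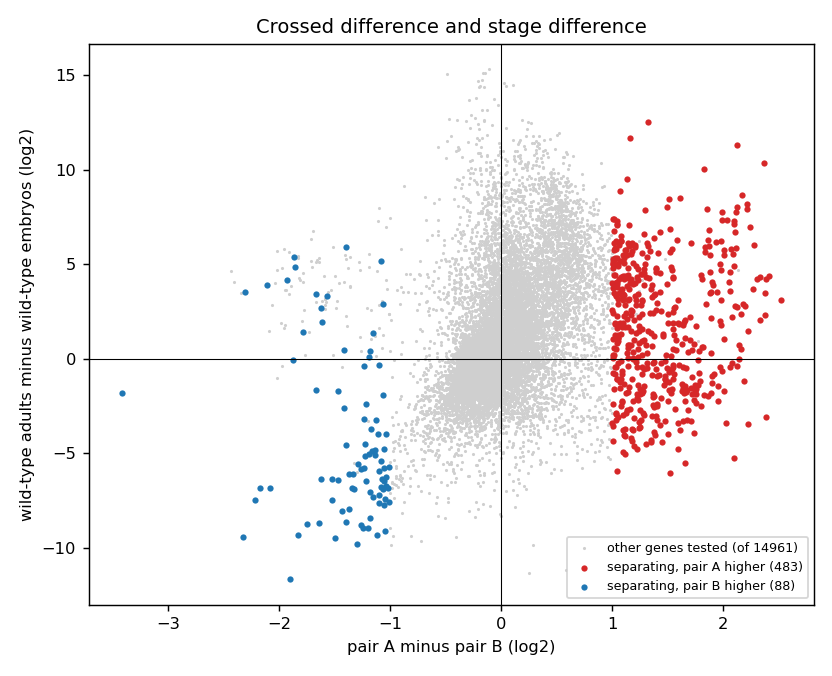
Difference between the pairs (x axis, pair A minus pair B, log2) against wild-type adults minus wild-type embryos (y axis, log2) for 14961 genes in both comparisons. The 88 genes higher in pair B lie mostly between -4 and -10 on the y axis, and the 483 genes higher in pair A spread on both sides of 0.

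The embryo arrays, which the rule did not use, offered a comparison of replicates on another slide. Between the wild-type embryo replicates, as replicate 1 minus 2, the median difference was 0.03 for the genes higher in pair A and 0.05 for those higher in pair B. Between the knockout embryo replicates it was 0.53 and -0.44, against -0.03 over all measured genes. Knockout embryo replicate 1 was also the brighter array, with a median signal of 265 against 214 for replicate 2. The wild-type embryo replicates had 74.7 and 77.4. The part of brightness in these differences was not tested. Over 15113 genes the difference between the pairs correlated at 0.07 with the wild-type and at 0.32 with the knockout embryo replicates. The genes and probes are shared between these comparisons but the arrays are not, and with 1 difference per genotype there is no replicate of these values.

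Genes higher in pair A were spread over all chromosomes, with the highest shares on V (5.04% of the genes measured there) and X (4.51%) and the lowest on III (1.94%) and I (2.05%). Of the 519 genes 91 (17.5%) stood next to another such gene in the order of measured genes. The longest runs had 6 genes and lay on chromosome V, as pqn-63, idpc-7, idpc-6, idpc-5, idpc-3 and col-146, and as wrt-7, clec-228, clec-229, wrt-8, C29F3.3 and clec-230. Another run of 5 on V holds abu-15, abu-6 and abu-7 with F14F9.4 and F14F9.3, and nspb-1, nspb-2 and nspb-3 adjoin on IV. Of 125 separating genes with more than 1 measured probe, 121 had all probes on the same side. At the threshold, clc-19 and Y22D7AR.7 lay just inside the threshold at differences of 1.001, and Y71G12B.2 at 0.9999 and C39B5.2 at -0.9996 lay just outside it.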

How the data were processed

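The arrays were Agilent single-colour arrays of Cy3-labelled total RNA. Per the file headers, the intensity values in the deposited scanner files are Feature Extraction processed signals (10.7.1.1 per the submitters' processing notes), background-subtracted within each array. The log2 values of the deposited table were recomputed: log2 signal minus the array's 75th percentile, centred on the wild type of each stage, matched 100% of them within 0.01 (43585 probes), and no label states these steps. Arrays give no counts, and their number limits the precision.

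Control spots and outlier flags (4 to 12 spots per array, 0 saturated) were left out, spots of a probe were averaged, and log2 signal minus the 75th percentile was used. Sequence names in the files named 31484 probes and transcript accessions 3673 more, and 8428 had no name. Each gene took the values of its brightest measured probe. Positions are left out because the build of the array design is not that of the gene table used for names.

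Tests used limma 3.58.1 in R 4.3.3 on all 8 arrays with 1 mean per group (4 residual and 2.57 prior degrees of freedom for genotype), two-sided, Benjamini-Hochberg adjusted over all genes tested, threshold 0.05, and were tested on simulated data. Where a group was not above background, the fold is a bound computed from the dimmest signals that were above it. Same-numbered adult arrays did not deviate together (correlation of their deviations over genes -0.69, and 0.02 in embryos), so no block was used.

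The members, the 41 gene lists and the rule for named genes were chosen with earlier results of these data known. The rule names seip-1, the 15 largest differences per direction among named genes above background on all 4 arrays with no overlap, 2 more per direction with sequence names, 3 bounds per direction, up to 5 members per list, and up to 3 members of the 6 families per direction with the highest share. Some members of the sperm list are not reported here. Members beyond these were named for comparison after their values were seen. Alternatives were median, quantile and cyclic loess scaling, normexp (offset 50, on median spot signals since the files hold no mean signal), the deposited table, other filters, mean probes, blocks and leaving out each array. Plots used matplotlib 3.10.9 (Python 3.11.15).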

Additional observations from a re-analysis of the deposited data

How the results depend on the processing

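Of the results on the axis, the counts of separating genes were within 1.5 times of 519 and 93 under median, quantile and cyclic loess scaling, with the deposited table and with mean probes (422 to 521 and 93 to 138). Normexp gave 209 and 18, and the correlation of the within-genotype differences was then 0.80. With only probes above background on all 4 adult arrays 47 genes were higher in pair B. With no filter there were 303, and the correlation was 0.32. Leaving out 1 array, the counts ranged from 352 to 816 and from 68 to 306. Of 41 list medians 27 kept their sign under the 5 scalings. Those of the collagen-processing, molting, epidermis, intestine, somatic gonad, msp, cytosolic ribosomal, respiratory chain, clec, UDP-glucuronosyltransferase, glutathione transferase, nuclear receptor, chemoreceptor and lysozyme lists did not. The 30 leading genes kept their direction in all of 240 values.

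For the genotype, the 11 higher and 6 lower calls of limma became 21 and 29 with normexp, and 11 lower with median scaling. The replicate block, which pairs equal numbers, left 1 and 2, and the crossed pairs as a block gave 18 and 10. The 4 adult arrays alone gave 0 and 1. Leaving out 1 array gave 0 to 20 higher and 2 to 70 lower, with the highest counts without knockout adult replicate 1 (20 and 70) or 2 (19 and 31). For the stage, only probes above background on all 8 arrays left 4515 genes higher in adults, 128 of them among those higher in pair A, and 41 lower among those higher in pair B, since fewer genes were tested. The cause of the other changes was not tested.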
